A study of Mus musculus with 121 samples.

Results

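Per2::Luc fibroblasts, immortalized cells of the mouse ear, were compared after entrainment by LH and by HL at the last of 6 collections, 20 h after the first. The comparison used the 4 libraries titled LH and the 4 titled HL of collection 6, that is 8 of the 62 libraries of the series, with both sequencing runs of a library summed. In HL the cells received medium rich in glucose and insulin and then medium poor in glucose and without insulin, each for 12 h of the day and for 3 days. LH used the opposite order, and HH, shown here only beside them, renewed rich medium at every change. All groups carry the Per2::Luc reporter, come from 1 immortalized line at the same passage, and were collected every 4 h after a further 12 h without medium change.

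The names of these 8 libraries conflict between the sources, and every direction below holds for the titles only. The read summary of the study, which lists libraries by number, calls LH replicate 1 an HL library of collection 5 and LH replicates 2 to 4 HL libraries of collection 6. It calls HL replicates 1 to 3 LH libraries of collection 4 and HL replicate 4 an LH library of collection 5. None of the 8 libraries has the same name in both sources (0 of 8), and over the series 40 of 62 libraries differ or have no number there. The 4 HH libraries of collection 6 have 1 name in both. The read summary also marks 2 of the 8 libraries, LH replicate 3 and HL replicate 4, as removed, in entries whose counted reads equal those of their second runs, which were nearly empty. With the first run alone 0 genes passed the edgeR test described below and 717 had an unadjusted p under 0.05. The times here are counted from the collection number, at 4 h a step from 0 h, whereas the labels give a time of 16 to collection 6 and, at collection 4, 20 to LH and 8 to HL. Which name is right was not tested, and in the following LH and HL mean the libraries so titled.

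In the circadian clock, CLOCK and ARNTL (BMAL1) drive transcription from E-boxes in the genes of their own repressors, the PER and CRY proteins, in Nr1d1 and Nr1d2, which encode the nuclear receptors REV-ERB alpha and beta, and in the PAR bZIP factor genes Dbp, Tef and Hlf. REV-ERB represses Arntl and Nfil3 through ROR elements, at which the ROR receptors activate, while DBP, TEF and HLF activate and NFIL3 represses at D-boxes. Transcripts of these genes therefore peak at different times of the cycle, and cultured fibroblasts keep this cycle without the brain.

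Promoters of 4 clock genes are shown because the levels of these genes are described below. Of the 19 clock genes described, 17 had a RefSeq promoter (GRCm38.p6). The 250 bases before the RefSeq start were searched on both strands for the E-box CACGTG, the core of the ROR element TNGGTCA and the D-box TTANGTAA, of which no motif contains another. Of 32851 RefSeq promoters, 6.02% held the E-box, 9.19% the ROR element core and 2.06% the D-box. The 17 clock genes had 23 promoters in the table, some of them overlapping, of which 6 held the E-box, 6 the ROR element core and 2 the D-box. Each sequence is printed 5′ to 3′ up to the gene's start in the GENCODE M21 annotation, with matches in capitals, and lies at chr11:98775378-98775627 on the minus strand for Nr1d1, at chr6:145865559-145865670 on the minus strand for Bhlhe41, at chr4:151044666-151044915 on the minus strand for Per3 and at chr7:113207215-113207464 on the plus strand for Arntl. The window of Nr1d1 held none of the 3 motifs, that of Bhlhe41 held 1 E-box, that of Per3 held 2 D-boxes and 1 ROR element core, and that of Arntl held 2 ROR element cores.
Nr1d1: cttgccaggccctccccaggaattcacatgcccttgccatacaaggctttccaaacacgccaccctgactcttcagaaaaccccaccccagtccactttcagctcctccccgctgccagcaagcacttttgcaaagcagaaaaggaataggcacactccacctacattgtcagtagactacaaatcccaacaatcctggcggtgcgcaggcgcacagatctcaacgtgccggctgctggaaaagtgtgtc
Bhlhe41: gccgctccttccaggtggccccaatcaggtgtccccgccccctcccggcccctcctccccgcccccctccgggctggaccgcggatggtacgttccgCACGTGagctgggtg
Per3: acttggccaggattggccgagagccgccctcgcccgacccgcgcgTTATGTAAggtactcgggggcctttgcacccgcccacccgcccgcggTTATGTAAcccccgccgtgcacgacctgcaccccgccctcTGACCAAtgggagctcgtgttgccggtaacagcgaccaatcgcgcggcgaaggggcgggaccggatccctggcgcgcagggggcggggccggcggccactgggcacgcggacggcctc
Arntl: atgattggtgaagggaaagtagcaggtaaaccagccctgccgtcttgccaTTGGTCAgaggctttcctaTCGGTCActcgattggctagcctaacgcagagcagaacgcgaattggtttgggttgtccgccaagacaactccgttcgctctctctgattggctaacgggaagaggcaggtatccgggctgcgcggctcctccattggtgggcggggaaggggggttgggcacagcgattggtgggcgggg

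Fibroblast markers were present in each library. All 12 fibroblast markers had a mean of at least 1 CPM (counts scaled to equal library totals), and their summed level was 27106 to 30879 CPM in LH and 24279 to 35881 CPM in HL. Of the other cell types, no list had most of its markers at that level, and 2 single markers were high. Of 5 endothelial markers 1 reached it, the VEGF receptor gene Kdr, and the list summed to 128 to 221 CPM in LH and 72.3 to 165 CPM in HL, with Pecam1 and Cdh5 at 0 to 1.10 CPM. Of 5 chondrocyte markers 1 reached it, the transcription factor gene Sox9, with a sum of 466 to 560 CPM in LH and 327 to 549 CPM in HL and Col9a1 and Matn1 at 0. Of 4 adipocyte markers 1 did (Fabp4, at 2.65 to 8.58 CPM, with Adipoq and Plin1 at 0), of 7 epithelial markers 1 (Cdh1, with Krt5 at 0) and of 6 immune markers 3 (Ptprc, Cd68 and Lyz2, with Cd3e and Cd79a at 0). None (0) of the 5 muscle markers and 0 of the 5 melanocyte and Schwann cell markers did. Libraries held 3391603 to 6274223 counts, with HL replicate 2 sequenced in 1 run and the second run of LH replicate 3 (37262 counts) and HL replicate 4 (50239 counts) nearly empty. In bulk RNA, fewer cells that express a gene and less RNA per cell cannot be told apart.

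Libraries LH replicate 1 and HL replicate 3 were closest to each other and lay apart from the other 6 on the first dimension of a scaling of the 8 libraries, and HL replicate 4 lay apart on the second. Over 7620 genes the log2 CPM of HL replicate 3 correlated with that of LH replicate 1 at 0.961, with its own group at a mean of 0.897 and with the LH libraries at a mean of 0.932. LH replicate 1 correlated with its own group at a mean of 0.938 and with the HL libraries at 0.921. HL replicate 4 correlated with its own group at a mean of 0.922 and with the LH libraries at 0.920, and its closest library, HL replicate 2, at 0.948 was the least close of the 8 closest matches. These correlations across genes describe 8 libraries, and genes are not independent replicates.

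The genes that set both libraries apart were chosen by these values and are given as a description. Both libraries lay above the other 6 by over 1.5 times in 110 of 5823 genes with a mean of at least 20 CPM, and below them by over 1.5 times in 84. Ereg, which encodes the growth factor epiregulin, had 134 CPM in LH replicate 1 and 720 CPM in HL replicate 3, against 8.96 to 11.8 CPM in the other 6. Ier3, an immediate early gene, had 823 and 1812 CPM against 141 to 155 CPM. Nupr1, a stress-induced transcriptional regulator, had 274.1 and 692 CPM against 33.9 to 93.0 CPM, and Cryab, a small heat shock protein, 612 and 1159 CPM against 103 to 214 CPM. Thbs1, the matrix protein thrombospondin 1, lay on the other side, with 115 and 93.3 CPM against 265.8 to 373 CPM. These 5 genes span from stress and growth factor transcripts to a matrix transcript, and each separated the same 2 libraries whatever their title.

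**Figure D1:**
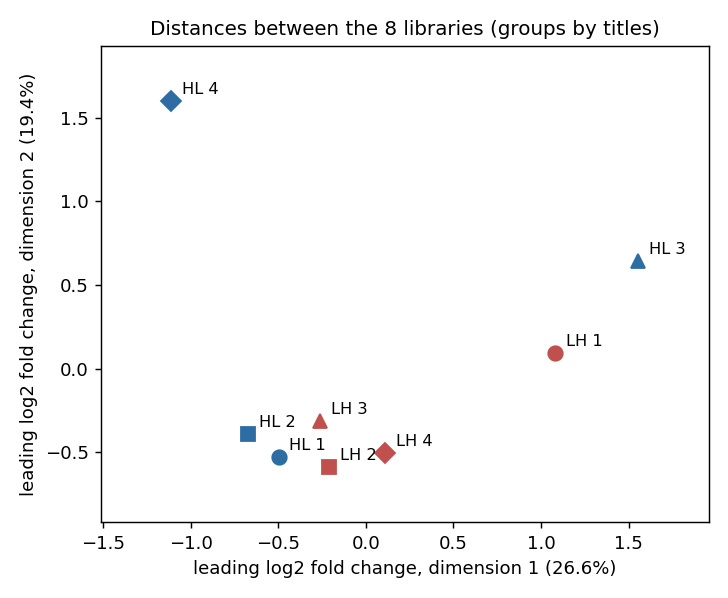
Multidimensional scaling of the 8 libraries by the leading log2 fold change between each pair, with colours and shapes for the group and replicate of the titles. LH replicate 1 and HL replicate 3 lie at 1.08 and 1.56 on dimension 1, the other 6 between -1.11 and 0.11, and HL replicate 4 lies at 1.60 on dimension 2.

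Between LH and HL no gene of 13292 tested passed an adjusted p of 0.05 (0 genes, 0% of those tested) in edgeR's quasi-likelihood test. The smallest adjusted p was 0.878. An unadjusted p under 0.05 was found for 720 genes (5.42%), with 2.09% of all genes higher and 3.33% lower in LH, and a p under 0.01 for 115 genes (0.865%). With library totals in place of TMM scaling, which moved the median log2 fold change of all genes by 0.12, 730 genes had a p under 0.05, of which 518 were higher and 212 lower. DESeq2 called 2 genes, Tuba1b and Nt5c3b, at an adjusted p of 0.05 and gave 738 genes an unadjusted p under 0.05.

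The libraries of a group did not overlap those of the other in 464 genes (3.49%), with 1.69% of all genes higher in every LH library and 1.80% lower. These counts and the levels below are in CPM scaled by the TMM factors of the 12 libraries of collection 6.

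The count of calls rested on which libraries were compared. Leaving out LH replicate 1 and HL replicate 3 together, a choice made after their values were seen, gave 13 calls (0.0978% of 13292 genes). In this comparison of 3 against 3 libraries, Nr1d1, Nr1d2, Dbp, Tef, Bhlhe41, Bak1, Pigt, Actb and Actg1 were lower in LH and Ifit1, Oasl2, Slfn8 and Irgm2 higher. Leaving out LH replicate 1 alone gave 2 calls, Nr1d1 and Nr1d2, and leaving out HL replicate 3 alone gave 5, Actg1, Bak1, Ifit1, Irgm2 and Slfn8. Leaving out LH replicate 1 and HL replicate 4, the libraries that the read summary puts in another collection than the rest of their group, gave 3 calls, Nr1d1, Nr1d2 and Dbp. Leaving out HL replicate 4 alone gave 0 calls, with 513 genes at an unadjusted p under 0.05.

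The read summary gives each of the replicate numbers 1 to 4 to 1 library of either group, and a block by these numbers, added after the data were seen, gave 20 calls over all 8 libraries (0.150% of 13292 genes), 8 higher and 12 lower in LH. Nr1d1, Nr1d2, Dbp, Bak1, Pigt, Actg1, Stom, Mfhas1, Oxct1, Gm26917, Nid1 and Raly were lower, and those higher included Tuba1b, Smoc2, Txnip, Ifit1, Oasl2, Iigp1 and Psap. The deviations of the libraries that share a number correlated at 0.63 for LH replicate 1 and HL replicate 3, and at 0.13, 0.098 and 0.021 for the other pairs. Pairs that do not share a number ranged from -0.48 (LH replicate 3 with HL replicate 3) to 0.40 (LH replicate 3 with HL replicate 4). The replicate numbers of the read summary come from names that differ from the titles in treatment and collection. Whether these numbers mark a shared culture is not given in the sources used here. Statements below that a gene was not called refer to the comparison of 8 libraries without a block.

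Among the clock genes the largest log2 fold changes over all 8 libraries were those of Nr1d1 and Dbp, and no clock gene passed the test over these libraries. Nr1d1 had 35.2, 7.29, 5.51 and 7.42 CPM in LH replicates 1 to 4 and 97.2, 85.9, 83.6 and 25.8 CPM in HL replicates 1 to 4. LH replicate 1 lay above HL replicate 4, so the groups overlapped. The mean was 13.9 ± 14.3 CPM (SD, n = 4) in LH and 73.1 ± 32.1 CPM in HL, a log2 fold change of -2.44 ± 0.53 (SE) with an adjusted p of 0.878, and without LH replicate 1 and HL replicate 3 it was -3.37 ± 0.34 with an adjusted p of 2e-05. The libraries between the clusters, LH replicate 1 and HL replicate 4, are the pair that the read summary assigns to collection 5. Nr1d1 lies at chr11:98767932-98775333 (GRCm38, minus strand) and its exons overlap those of Thra on the other strand, and whether the counting used strand is not given in the sources used here.

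Nr1d2, the paralogue of Nr1d1, had 104, 19.3, 20.0 and 28.1 CPM in LH replicates 1 to 4. In HL it had 99.2, 84.3, 77.9 and 66.8 CPM. LH replicate 1 was the highest of all 8 libraries and the other 3 LH libraries were the lowest. The log2 fold change was -0.96 ± 0.43 (adjusted p = 0.878), and without LH replicate 1 and HL replicate 3 it was -1.90 ± 0.20 (adjusted p = 2.4e-05).

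Dbp had 35.6, 9.37, 5.01 and 9.58 CPM in LH replicates 1 to 4 and 67.6, 89.0, 36.5 and 20.5 CPM in HL. Again LH replicate 1 was the only LH library within the range of HL, and HL replicate 4 the lowest of HL. The log2 fold change was -1.87 ± 0.52 (adjusted p = 0.878) over 8 libraries and -2.87 ± 0.36 (adjusted p = 0.000283) over 6, which here and below leave out LH replicate 1 and HL replicate 3. Tef had 167, 104, 93.2 and 91.8 CPM in LH and 214, 195, 143 and 179 CPM in HL, so that LH replicate 1 lay above HL replicate 3. Its log2 fold change was -0.69 ± 0.21 over 8 libraries and -1.03 ± 0.14 over 6 (adjusted p = 0.00107). Hlf, the other PAR bZIP gene, had 38.6 to 137 CPM in LH, highest in LH replicate 1, and 64.9 to 83.2 CPM in HL. Its log2 fold change was 0.02 ± 0.30 over 8 libraries, -0.38 ± 0.20 over 6 and -0.13 with the block by the numbers of the read summary.

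Of the E-box repressors, Bhlhe41 (DEC2) had 14.2, 7.11, 3.76 and 8.34 CPM in LH and 26.3, 24.4, 9.91 and 16.4 CPM in HL. LH replicate 1 was above HL replicate 3, and the remaining 6 libraries did not overlap. The log2 fold change was -1.22 ± 0.38 over 8 libraries and -1.79 ± 0.32 over 6 (adjusted p = 0.0143). Its relative Bhlhe40 (DEC1) had 4.48 to 12.6 CPM in LH and 7.05 to 13.9 CPM in HL, and Ciart, a repressor of CLOCK and BMAL1, had 0 to 3.99 CPM in LH and 1.34 to 3.92 CPM in HL. The log2 fold change of Ciart was -0.98 ± 0.89 over 8 libraries and -2.45 ± 1.02 over 6.

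The period genes had low levels, and 3 counts correspond to 0.478 to 0.885 CPM. Per3 had 7.97, 4.16, 5.76 and 6.18 CPM in LH and 13.5, 25.2, 2.18 and 9.40 CPM in HL. HL replicate 3 was below each LH library and the other 3 HL libraries above each, with a log2 fold change of -1.07 ± 0.52 over all 8 and -1.58 ± 0.37 over 6. Per2, the gene of the reporter, had 1.08 to 4.65 CPM in LH and 0.99 to 10.2 CPM in HL (log2 fold change -0.91 ± 0.60 over 8 libraries and -1.51 ± 0.50 over 6). Per1 had means of 9.59 ± 4.55 and 9.63 ± 3.15 CPM, and its log2 fold change of -0.02 ± 0.39 changed sign with library totals. Cry1 had 25.6 to 30.1 CPM in LH and 10.1, 12.5, 28.2 and 35.5 CPM in HL, with a log2 fold change of 0.36 ± 0.33 over 8 libraries and 0.74 ± 0.29 over 6. Cry2 had 10.8 to 18.7 CPM in LH and 8.46 to 23.2 CPM in HL, with a log2 fold change of -0.03 ± 0.31 that also changed sign with library totals.

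Nfil3, which represses at the D-box, was on the opposite side of Dbp. It had 5.76, 14.4, 13.03 and 16.1 CPM in LH and 4.23, 2.80, 5.35 and 6.38 CPM in HL. LH replicate 1 lay within HL and the other 3 LH libraries above all of HL, with a log2 fold change of 1.39 ± 0.38 (adjusted p = 0.878). Without LH replicate 1 and HL replicate 3 it was 1.71 ± 0.36 (adjusted p = 0.0692).

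Among the activators, Arntl had 1.77, 3.99, 7.26 and 7.11 CPM in LH and 1.41, 0.56, 6.34 and 3.69 CPM in HL, a log2 fold change of 0.72 ± 0.63. It was 1.74 ± 0.60 without LH replicate 1 and HL replicate 3, and -0.43 with the second run alone, in which LH replicate 3 and HL replicate 4 were nearly empty. Clock had 52.3 to 76.2 CPM in LH and 55.2 to 66.1 CPM in HL (0.08 ± 0.17). Rora, which encodes a ROR receptor, had 165 to 182 CPM in 3 LH libraries and 158 to 175 CPM in 3 HL libraries, but 292 CPM in LH replicate 1 and 457 CPM in HL replicate 3. Its log2 fold change was -0.26 ± 0.31 over 8 libraries and 0.05 ± 0.14 over 6. Rorb had 5.09 to 8.67 CPM in LH and 1.40 to 6.71 CPM in HL (1.17 ± 0.47). Npas2, a relative of Clock, had 0 to 2.97 CPM in the 8 libraries, with a log2 fold change of 0.68 ± 1.17 over 8 libraries and 3.59 ± 1.62 over 6.

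Counted by list, 1 of 5 clock activators had an unadjusted p under 0.05 and was higher in LH, against 2.09% of all genes. Of 11 clock repressors, 3 were lower, against 3.33% of all genes, and 1, Nfil3, was higher. Of 3 PAR bZIP genes, 2 were lower. These counts were, without LH replicate 1 and HL replicate 3, 3 activators higher, 6 repressors lower and 2 higher, and 2 PAR bZIP genes lower, where 4.78% of all genes were higher and 5.71% lower with a p under 0.05. The median log2 fold change was 0.68 for activators, -0.91 for repressors and -0.69 for PAR bZIP genes, against -0.01 for all genes, and kept its sign with library totals (0.86, -0.81 and -0.58).

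**Figure D2:**
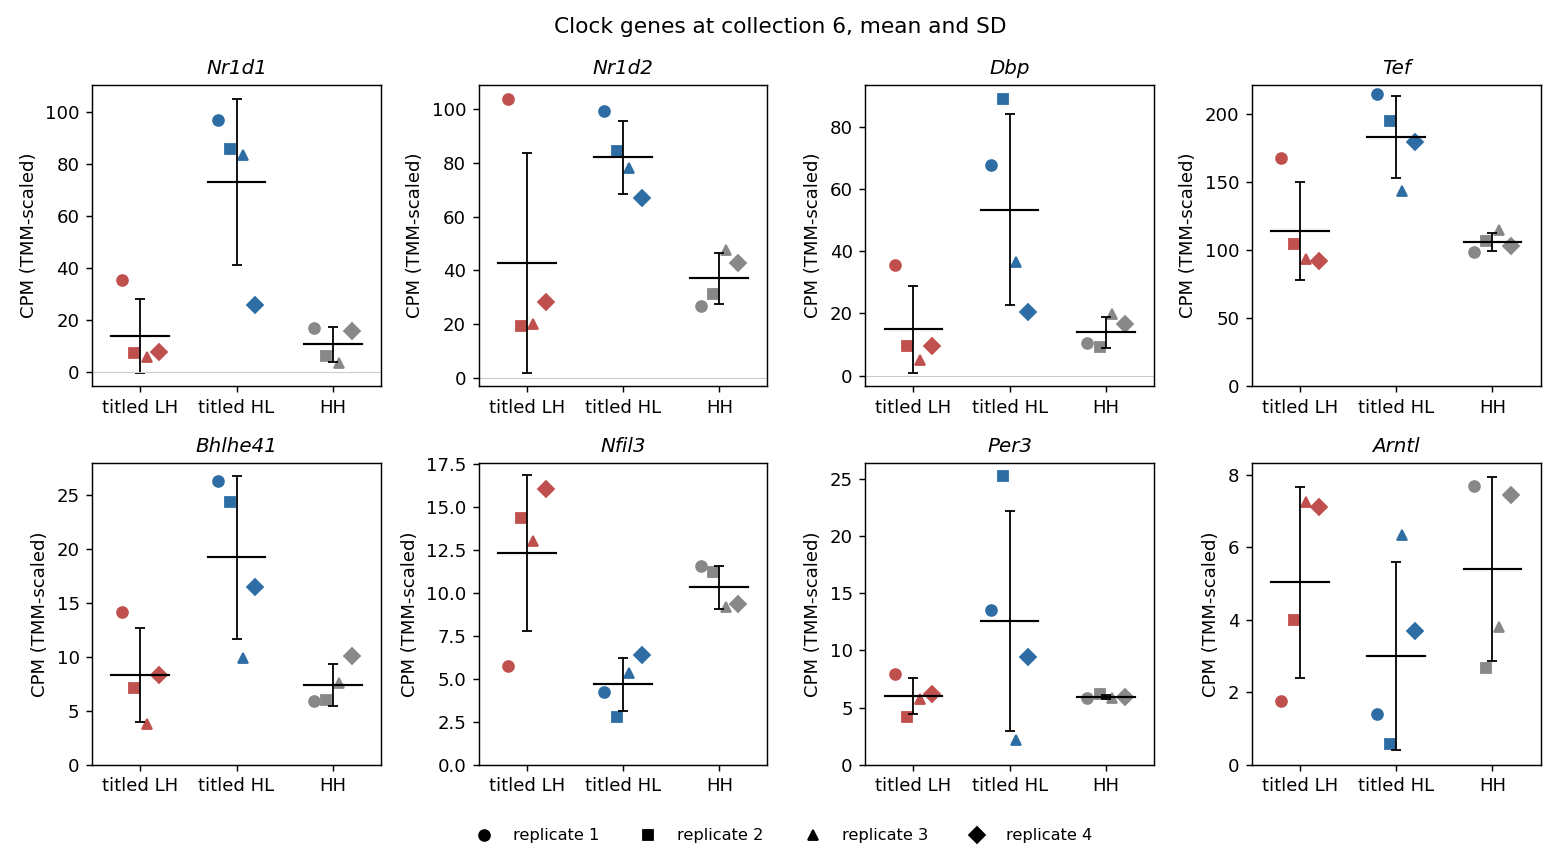
Levels of 8 clock genes in the 12 libraries of collection 6 (CPM, TMM-scaled, linear axis from 0), with a point for each library, its shape giving the replicate of the title, and bars for the mean and SD (n = 4). LH replicate 1 lies within or near the HL range for Nr1d1 (35.2 CPM), Nr1d2 (104 CPM) and Dbp (35.6 CPM), while LH replicates 2 to 4 lie below every HL library in these 3 genes.

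Beside these, the names of the HH libraries of collection 6 do not conflict. Nr1d1 had 3.35 to 16.8 CPM in HH, Dbp 9.05 to 19.7 CPM and Tef 98.8 to 114 CPM, below every HL library. Nr1d2, at 26.8 to 47.4 CPM, reached above LH replicates 2 to 4 and stayed below HL. Nfil3, at 9.16 to 11.6 CPM, lay below LH replicates 2 to 4 and above HL. No test was made against HH.

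**Figure D3:**
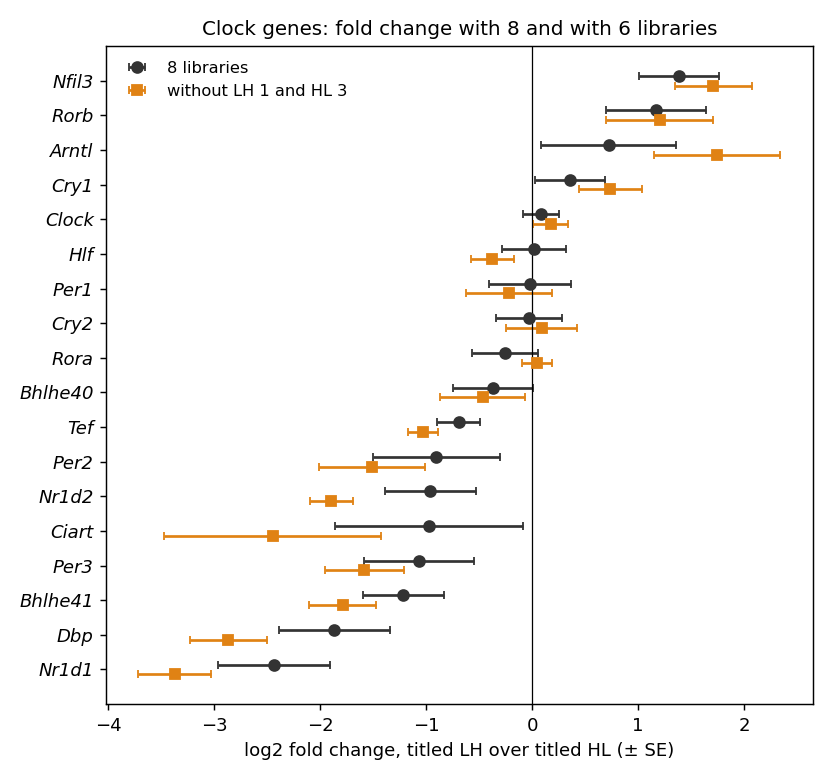
Log2 fold change of LH over HL for 18 clock genes with its SE, over all 8 libraries (circles) and without LH replicate 1 and HL replicate 3 (squares), with Npas2 left out because its SE over 8 libraries exceeds 1. Nr1d1 moves from -2.44 to -3.37, Nr1d2 from -0.96 to -1.90 and Dbp from -1.87 to -2.87.

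Outside the clock, the genes with the smallest p among those with a mean of at least 5 CPM are given as a description of what the ranking chose. None of the 12 named for each direction was called by edgeR. In 20 of 24 the groups did not overlap, against 3.49% of all genes, and as these genes were chosen by small p nothing is read from that count. Tuba1b, an alpha tubulin, had 354, 420, 358 and 355 CPM in LH and 272.1, 212, 207 and 193 CPM in HL, a log2 fold change of 0.74 ± 0.15 (adjusted p = 0.878). In DESeq2 the log2 fold change of Tuba1b had an adjusted p of 0.0273. Myl6, the essential light chain of nonmuscle myosin, had 164 to 207 CPM in LH and 106 to 142 CPM in HL (0.64 ± 0.15). Both differed by less than the spread of HH, where Tuba1b ranged from 151 to 720 CPM and Myl6 from 84.1 to 343 CPM. Tubulin genes have near-identical copies, and reads that align to more than 1 of them were not counted for any gene.

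Rmi1, part of the complex with the BLM helicase that resolves recombination intermediates, had 9.74, 9.89, 9.02 and 8.34 CPM in LH and 4.23, 2.24, 3.37 and 3.69 CPM in HL. Its log2 fold change was the largest of the 12 higher genes, at 1.41 ± 0.34 (adjusted p = 0.878). Its exons overlap those of Hnrnpk on the other strand. Smoc2, a matricellular protein, had 139 to 188 CPM in LH and 56.1 to 118 CPM in HL (0.81 ± 0.21). Here HL replicate 4 was the lowest library and LH replicate 1 the lowest of LH.

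The other higher genes were Igsf8 (log2 fold change 0.69 ± 0.18), Mogs (0.71 ± 0.18), Man1c1 (0.91 ± 0.25), Tut1 (1.10 ± 0.30), Afg3l2 (1.08 ± 0.31), Ints12 (1.32 ± 0.40), Heatr5b (0.64 ± 0.20) and Nfil3, already described. Mogs and Man1c1 encode glycosidases that trim N-glycans in the ER and Golgi, Tut1 a terminal uridylyltransferase of U6 RNA, and Afg3l2 a subunit of the mitochondrial m-AAA protease. In each of these but Nfil3 all LH libraries lay above all HL libraries.

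Among the lower genes, Nt5c3b, a nucleotidase, had the smallest p of all genes. It had 7.09, 6.42, 8.27 and 6.34 CPM in LH and 15.05, 16.5, 15.3 and 17.8 CPM in HL, a log2 fold change of -1.22 ± 0.25 (adjusted p = 0.878). In DESeq2 the log2 fold change of Nt5c3b had an adjusted p of 0.0415. The groups were apart, and its exons overlap those of Fkbp10 on the other strand. Tfap2c, a transcription factor of the AP-2 family, had 6.20 to 7.42 CPM in LH and 11.4 to 16.4 CPM in HL (-1.13 ± 0.26). Pemt, which makes phosphatidylcholine from phosphatidylethanolamine, had 2.94 to 4.65 CPM in LH and 7.13 to 15.1 CPM in HL (-1.48 ± 0.35).

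Bax and Bak1, which encode effectors of apoptosis at mitochondria, were among these genes chosen by small p, and no list of apoptosis genes was counted. Bax had 21.3, 14.7, 23.5 and 22.6 CPM in LH and 30.1, 34.2, 34.9 and 45.0 CPM in HL (-0.82 ± 0.21), with no overlap. Bak1 had 44.5, 37.8, 61.1 and 49.8 CPM in LH and 90.9, 109, 58.1 and 123 CPM in HL (-0.99 ± 0.23), where HL replicate 3 lay within LH. Without LH replicate 1 and HL replicate 3, Bak1 had an adjusted p of 0.00703.

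The other lower genes were Oxct1 (-0.68 ± 0.18), which encodes the enzyme that activates ketone bodies, Stom (-0.95 ± 0.24), Vamp8 (-0.60 ± 0.16), Arf5 (-0.65 ± 0.17), Mfhas1 (-0.71 ± 0.19), Gm26917 (-0.73 ± 0.19) and Nr1d1. Gm26917 is annotated as a long noncoding RNA, and from which transcripts its reads come was not tested. Stom is a lipid raft protein, Vamp8 a SNARE of late endosomes, and Arf5 a small GTPase of the Golgi. HL replicate 4 was the highest of the 8 libraries in 10 of the 12 lower genes, as in Oxct1 (1581 CPM) and Arf5 (787 CPM), and the lowest in 8 of the 12 higher genes. Without HL replicate 4 the log2 fold change of Arf5 was -0.48 and the log2 fold change of Oxct1 was -0.50, and the part of this library in the ranking was not otherwise tested.

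**Figure D4:**
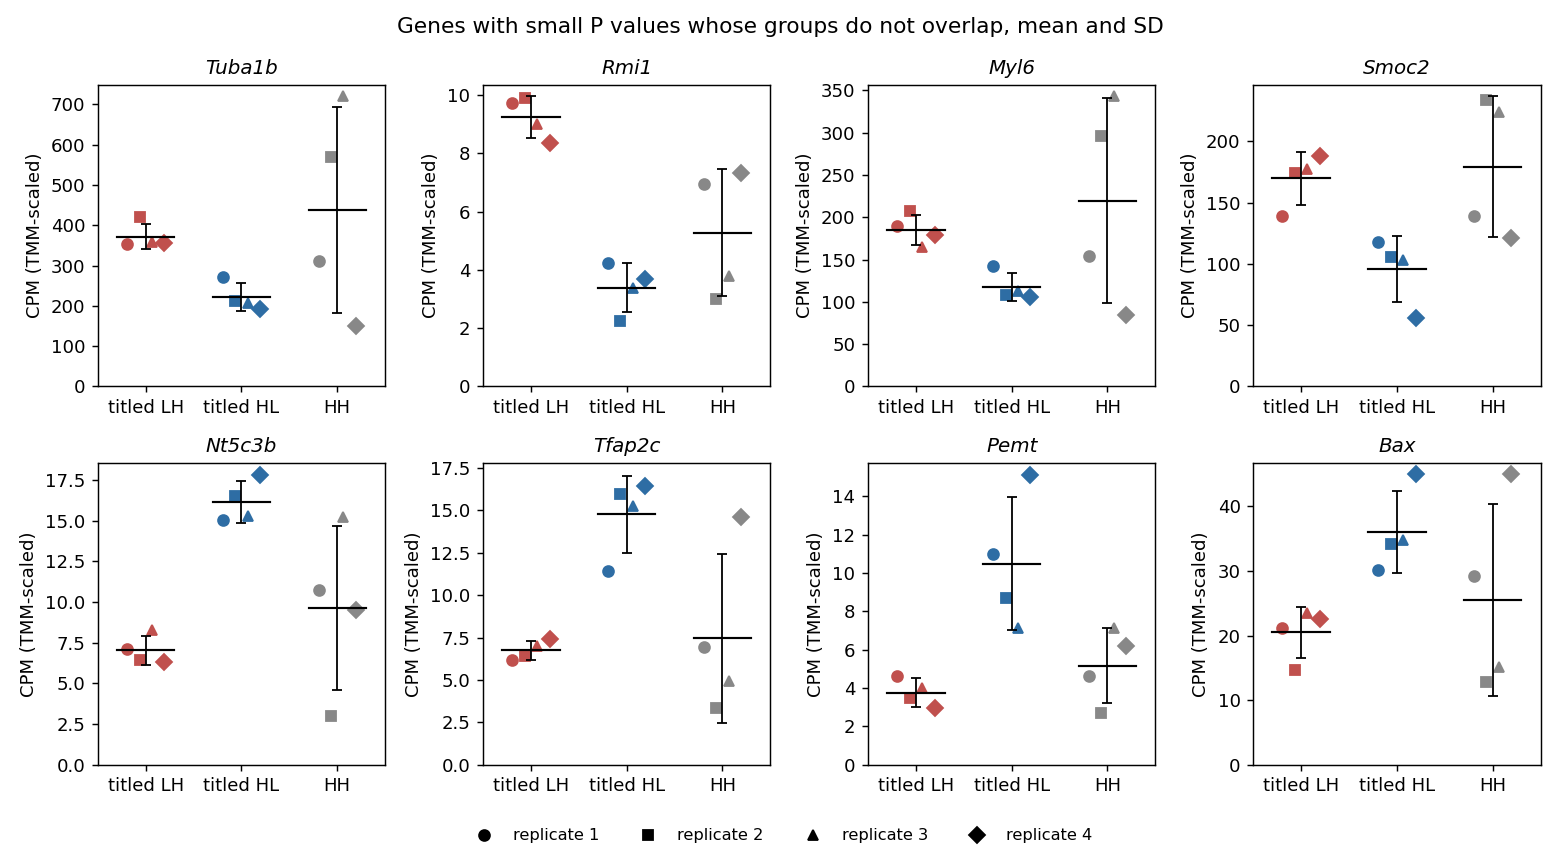
Levels of 4 genes higher and 4 genes lower in LH, chosen among the named genes with groups that do not overlap (CPM, TMM-scaled, linear axis from 0, points for libraries, bars for mean and SD, n = 4). LH and HL are apart in each panel, as in Rmi1 (8.34 to 9.89 against 2.24 to 4.23 CPM), while HH spreads over both for Tuba1b (151 to 720 CPM).

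Among the lists of other pathways no member was called, and several lists held a larger share of genes with a p under 0.05 than all genes did, in 1 direction or in both. The members named from lists here were chosen by small p after their values were seen. Of 44 genes of mitosis and chromosome segregation, 7 (15.9%) had a p under 0.05 and were lower, against 3.33% of all genes, and none was higher. In 4 of the 44 genes, whatever their p, all LH libraries lay below all HL libraries, which is 9.09% against 1.80% of all genes. The list's median was -0.57 (-0.46 with library totals). It was -0.94 without LH replicate 1 and HL replicate 3, and 19 of the 44 genes (43.2%) had a p under 0.05 and were lower, against 5.71% of all genes. Top2a, the topoisomerase that untangles chromosomes, had 63.3, 55.0, 67.9 and 46.0 CPM in LH and 106, 88.2, 74.7 and 70.8 CPM in HL, and Ccnb2, a mitotic cyclin, 1.08 to 2.25 CPM in LH and 3.17 to 8.93 CPM in HL. The summed level of the list was 555 to 653 CPM in LH and 570 to 826 CPM in HL, so the groups overlapped. Of 41 genes of DNA replication, 2 (4.88%) were lower with a p under 0.05 and none was higher, and 5 were lower without LH replicate 1 and HL replicate 3.

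Of 24 genes of MHC class I and the interferon response, 4 (16.7%) had a p under 0.05 and were higher in LH, against 2.09% of all genes, and none was lower. Their median was 0.28 (0.44 with library totals, 0.64 without LH replicate 1 and HL replicate 3, where 14 of the 24 were higher with a p under 0.05, against 4.78% of all genes). Irf1, a transcription factor induced by interferon, had 41.6, 38.0, 38.6 and 46.7 CPM in LH and 34.9, 30.8, 23.4 and 26.2 CPM in HL, without overlap. Ifit2, an antiviral protein, was likewise apart, at 11.8 to 19.04 against 5.71 to 11.1 CPM. The 4 interferon-induced genes called without LH replicate 1 and HL replicate 3, of which Ifit1 and Oasl2 were also called over 8 libraries with the block by the numbers of the read summary, were high in HL replicate 3, as in Ifit1, which had 177 CPM in LH replicate 1 and 202 CPM in HL replicate 3, against 67.1 to 107 CPM in the other LH and 16.9 to 47.7 CPM in the other HL libraries. Oasl2 had 118 and 124 CPM against 34.0 to 73.4 and 9.88 to 26.5 CPM. The marker sum of immune cells was 7.30 to 16.3 CPM in LH and 10.3 to 17.7 CPM in HL, and its part in these values was not tested.

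Of 23 antioxidant genes regulated by NRF2, 6 (26.1%) were lower with a p under 0.05, against 3.33% of all genes, and none higher, among them Gclm, Hmox1 and Nqo1. Their median was -0.14, which is -0.01 with library totals, close to the shift of all genes. Hmox1, which degrades heme, had 43.6, 56.0, 66.1 and 45.0 CPM in LH and 89.5, 94.0, 50.1 and 76.9 CPM in HL. HL replicate 3 lay within LH. Gclm, a subunit of the enzyme that starts glutathione synthesis, was apart, at 44.2 to 54.5 against 59.7 to 85.4 CPM.

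Of 24 sterol synthesis genes 3 (12.5%) were lower with a p under 0.05, Fdps, Sqle and Mvd, against 3.33% of all genes, and none was higher, with a median of -0.10 that became 0.03 with library totals. Of 24 genes of the actin cytoskeleton 2 (8.33%) were lower, Actb and Actg1. Without LH replicate 1 and HL replicate 3, 5 sterol synthesis genes and 9 actin cytoskeleton genes were lower, against 5.71% of all genes. Actb had 7078 to 9236 CPM in LH and 12388, 13085, 6806 and 15370 CPM in HL, with HL replicate 3 below every LH library. Actg1 had 26.1 to 52.4 CPM in LH and 85.4, 131, 29.9 and 118 CPM in HL. Without LH replicate 1 and HL replicate 3 these had adjusted p of 0.0377 and 0.00194. As near-identical paralogues, Actb and Actg1 may both lose reads that align to more than 1 place, which were not counted.

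Of 15 fatty acid synthesis genes 3 (20.0%) were lower and 2 (13.3%) higher with a p under 0.05. Of 29 lysosome and autophagy genes 3 (10.3%) were lower and 2 (6.90%) higher. Of 74 nuclear genes of the respiratory chain 8 (10.8%) were lower and 1 higher, and of 70 cytosolic ribosomal protein genes 6 (8.57%) were higher and 4 (5.71%) lower. All genes had 2.09% higher and 3.33% lower. Without LH replicate 1 and HL replicate 3, 20 ribosomal protein genes (28.6%) were higher and 9 (12.9%) lower with a p under 0.05. Of the respiratory chain genes 5 (6.76%) were then higher and 15 (20.3%) lower. Fatty acid synthesis had 2 higher and 3 lower, and lysosome and autophagy 3 higher and 5 lower. All genes had 4.78% higher and 5.71% lower in that comparison.

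The entraining signal was glucose and insulin, and no gene of these pathways was called without a block. Txnip, the glucose-induced arrestin that limits glucose uptake, had 49.4, 84.3, 49.6 and 70.0 CPM in LH and 58.5, 44.5, 17.8 and 14.8 CPM in HL, with an overlap and a log2 fold change of 0.88 ± 0.36 (adjusted p = 0.878). Its relative Arrdc4 had 0.31 to 3.26 CPM in LH and 0.20 to 5.32 CPM in HL. Of 7 genes of glucose sensing 1 had a p under 0.05, of 22 glycolysis genes 1, and of 23 insulin and FOXO genes none (0), with medians of 0.15, 0.00 and 0.01. All genes had such a p in 5.42%. The glycolysis gene was lower in LH, and without LH replicate 1 and HL replicate 3 5 glycolysis genes were higher, against 4.78% of all genes, and none (0) lower, against 5.71%. With the block by the numbers of the read summary the log2 fold change of Txnip was 1.02 (adjusted p = 0.0390 in edgeR).

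**Figure D5:**
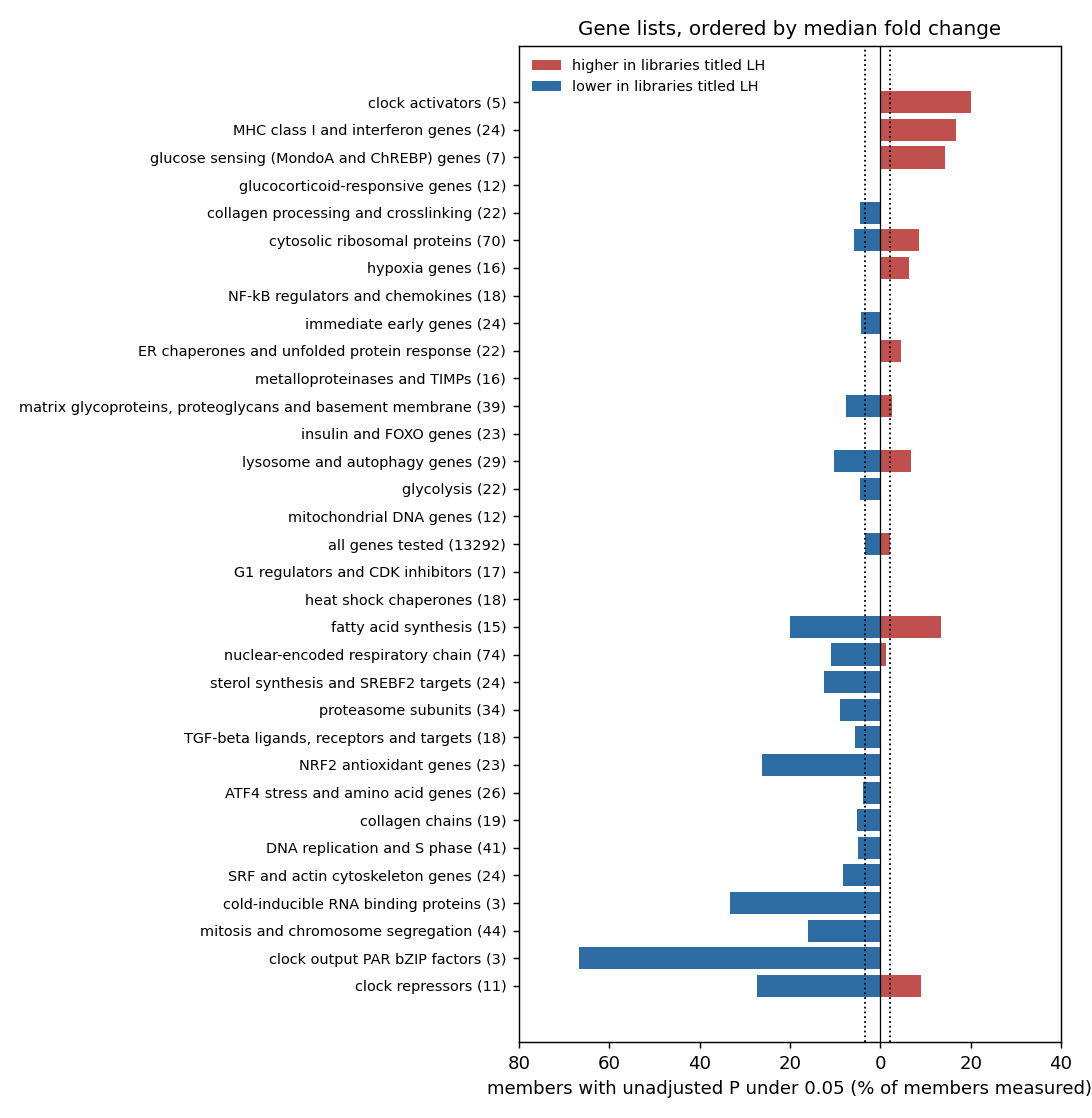
Share of the measured members of each list with an unadjusted p under 0.05, higher (right) and lower (left) in LH, ordered by median log2 fold change, with the number measured in brackets. Dotted lines mark all genes, at 2.09% and 3.33%, and NRF2 antioxidant genes reach 26.1% and mitosis genes 15.9% lower and interferon genes 16.7% higher.

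The difference between LH and HL at collection 6 was then set against the mean difference over collections 1 to 5, in a fit of all 62 libraries by titles. No gene passed an adjusted p of 0.05 (0 of 13292, 0%), while 781 had an unadjusted p under 0.05. DESeq2 called 1 gene, Nr1d1, and gave 756 an unadjusted p under 0.05. Nr1d1 had the smallest adjusted p in edgeR, 0.0982, with a difference of differences of -3.01 ± 0.61 on the log2 scale. For Dbp it was -2.99 ± 0.68 (adjusted p = 0.358), for Tef -1.28 ± 0.31 (0.368 as adjusted p) and for Nfil3 1.60 ± 0.41 (0.497 as adjusted p). Without LH replicate 1 there were 3 calls, Nr1d1, Nr1d2 and Dbp, and without HL replicate 4 there was 1, Nr1d1.

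By the treatment and collection number of the titles, the mean of Nr1d1 in CPM of library totals was highest at 12 h in LH, at 128 ± 57.5 CPM (SD, n = 4), and was 47.5 ± 36.7 CPM at 16 h and 14.4 ± 14.8 CPM at 20 h. In HL it was 94.3 ± 66.9 CPM at 12 h, 95.9 ± 53.4 CPM at 16 h (n = 3) and 71.4 ± 33.6 CPM at 20 h. In HH, whose names do not conflict at 20 h, it was highest at 8 h, at 157 ± 8.07 CPM (n = 3), and 10.9 ± 7.46 CPM at 20 h (n = 4).

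By the library numbers of the read summary, the libraries analysed here hold 4 of LH and 3 of HL at collection 6, and the latter are those titled LH replicates 2 to 4. A further library that it places in HL at collection 6 was not analysed here, so that this HL group is incomplete. Compared so, 0 genes passed an adjusted p of 0.05 in edgeR and 370 had an unadjusted p under 0.05. The log2 fold change of Nr1d1 was then 2.04 and of Dbp 0.27, opposite in sign to the titles.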

How the data were processed

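RNA was sequenced by 3′DGE, whose reads come from transcript ends, so a count does not grow with gene length. The authors deposited raw read counts per Ensembl gene for each sequencing run. The submitters' processing notes name bcl2fastq, STAR (2.6.0a), HTSeq (0.9.1) and mm10, and the use of strand is not given in the sources used here. Runs were summed. Totals and tests used gene rows only (no feature 20.4% to 24.5% and ambiguous 0.314% to 0.395% of uniquely aligned reads in the 8 libraries). Alignments marked as not unique were left out. They were 39.5% to 45.1% of the sum of these and the uniquely aligned reads in the 8 libraries. Symbols matched 30934 of 31053 identifiers, with positions from GENCODE M21.

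Genes with at least 1 CPM in 3 of 62 libraries (13292) were tested with edgeR (4.0.16) in R (4.3.3), quasi-likelihood test, TMM scaling and treatment as the only term, with Benjamini-Hochberg adjustment. DESeq2 (1.42.0) was an alternative. Levels are CPM scaled by the TMM factors of the 12 collection 6 libraries, and 3 counts set the floor. Named were the 12 genes of smallest p in each direction with a mean of at least 5 CPM, up to 4 called members of a list (none was called, so the list members named were chosen by small p after their values were seen), the clock genes, Txnip and Arrdc4, and the genes called in an added alternative. The study's methods call replicates biological unless stated otherwise, and the labels do not say which libraries share a culture, so p-values measure the spread between these libraries. Between the 2 runs of a library the counts gave a chi-square divided by its degrees of freedom of 1.35 to 2.11, and between libraries of a group 5.78 to 35.5. In simulated data for LH against HL (13292 genes), 44 of 100 genes changed 2-fold and 91 of 100 changed 4-fold were found, with 12 false calls. The counts were drawn independently for each gene and library, with changes only in genes of at least 5 CPM. No deviation shared by the genes of a library was simulated, so these shares are not the power of the real comparison. Some genes are not reported here. Members and lists were chosen with earlier results of these data known. Alternatives covered scaling, filters, runs, depth, library numbers, replicate blocks and leaving out libraries.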

Additional observations from a re-analysis of the deposited data

Results flagged for a closer look

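In groups of 4, a library whose gap to the nearest other library took a larger share of the group's range than Dixon's 95% critical value was marked, and 12 of 106 sets of values searched were. Chance marks about 1 in 20 such groups, which is no measure here, since some genes were named because they were called without LH replicate 1 and HL replicate 3. LH replicate 1 was far above the other LH libraries in Nr1d1 (35.2 CPM), Nr1d2 (104 CPM), Dbp (35.6 CPM), Tef (167 CPM) and Rora (292 CPM). HL replicate 3 was far above the other HL libraries in Rora (457 CPM), Npas2 (2.97 CPM), Oasl2 (124 CPM), Ifit1 (202 CPM) and Slfn8 (64.4 CPM). LH replicate 2 was high in Tuba1b (420 CPM) and low in Irgm2 (11.6 CPM).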

How the results depend on the processing

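The count of genes called between LH and HL, 0 over 8 libraries, was 2 with DESeq2, 3 without LH replicate 1 and HL replicate 4, 13 without LH replicate 1 and HL replicate 3 (added after the data were seen) and 0 to 5 leaving out 1 library. It was 0 with the other scalings and filters, with either run alone, at equal depth, with all 62 libraries in the fit and by library number. With the replicate block it was 0, with 418 genes at an unadjusted p under 0.05 against 720, but the replicate numbers of the titles do not pair the libraries (correlations of deviations -0.25, 0.33, -0.48 and -0.12). With the replicate block by the numbers of the read summary, added after the data were seen, it was 20, and the correlations of these pairs were 0.098, 0.021, 0.13 and 0.63, not all above 0.1. For the departure from the other collections, 0 calls became 1 with DESeq2, 1 with the replicate block and 0 to 3 leaving out 1 library. The causes of these changes were not tested.

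Some log2 fold changes, most of them near 0, changed sign. Leaving out 1 library, the log2 fold change of Clock was -0.016 to 0.17, and it was -0.48 to 0.26 for Rora, -0.28 to 0.23 for Per1, -0.25 to 0.23 for Cry2 and -0.43 to 0.23 for Hlf. Per1 was 0.10 with library totals, 0.020 with the first run and 0.094 at equal depth. Cry2 was 0.11, 0.0017 and 0.0045 in the same order, 0.12 with the second run, 0.019 with the replicate block, 0.27 without LH replicate 1 and HL replicate 4, and 0.091 without LH replicate 1 and HL replicate 3. Hlf was -0.14 with the replicate block, -0.36 without LH replicate 1 and HL replicate 4 and -0.38 without LH replicate 1 and HL replicate 3, where Rora was 0.045. With the replicate block by the numbers of the read summary Cry2 was 0.0062 and Hlf -0.13. Arntl was -0.43 with the second run, in which LH replicate 3 and HL replicate 4 were nearly empty.

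By library number, which compares other libraries and swaps treatments, these genes changed sign: Tuba1b (-0.68), Rmi1 (-0.82), Myl6 (-0.69), Igsf8 (-0.51), Mogs (-0.16), Smoc2 (-0.36), Man1c1 (-0.59), Tut1 (-0.41), Nfil3 (-0.18), Afg3l2 (-0.93), Ints12 (-0.90), Nt5c3b (0.80), Nr1d1 (2.04), Bak1 (0.31), Tfap2c (0.75), Pemt (0.34), Stom (0.95), Bax (0.59), Mfhas1 (0.78), Oxct1 (0.14), Vamp8 (0.14), Arf5 (0.23), Gm26917 (0.30), Clock (-0.16), Npas2 (-1.85), Rora (0.64), Rorb (-0.61), Cry2 (0.38), Nr1d2 (0.96), Ciart (1.32), Bhlhe40 (0.23), Dbp (0.27), Tef (0.21), Hlf (-0.21), Txnip (-0.70), Irgm2 (-0.32), Pigt (0.26) and Actg1 (0.0049). Totals of 3391603 to 6274223 counts leave genes near 1 CPM unresolved.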

Other observations

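The 10 genes with the largest gap between LH replicate 1 and HL replicate 3 and the other 6 libraries were Ereg, Akr1b3, Ier3, Gem, Ifi44, Stc1, Map2k4, Nupr1, Steap1 and Cryab, chosen by these values. HH replicate 4 of collection 6, not used to choose them, was above the other 3 HH libraries in 9 of the 10 and not in Steap1 (25.8 CPM against 16.1 to 35.1 CPM). It had 133 CPM of Ereg against 6.71 to 9.43 CPM in the other HH libraries, 681 CPM of Ier3 against 108 to 151 CPM and 361 CPM of Nupr1 against 37.1 to 94.8 CPM. The read summary gives the number 4 to all 3 of these libraries. The genes with the largest gap on the lower side carried over less. HH replicate 4 was the lowest of HH in Gm2115 and Pcdh18. In Thbs1 it had 203 CPM and HH replicate 3 had 155 CPM, and HH replicate 3 was also lower in Zfp608 and Fat4.

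Over the series, the read summary gives replicate number 4 to 15 libraries. Of the 15 libraries with the highest summed CPM of these 10 genes, 12 had that number and 3 had no number there. The sum was 574 to 14519 CPM (median 1200 CPM) in the libraries of number 4, and 387 to 687 CPM, 425 to 584 CPM and 429 to 763 CPM in those of numbers 1, 2 and 3. By the replicate number of the titles, the 15 highest spread over all 4 numbers, with 2, 6, 3 and 4 libraries. LH replicate 1 and HL replicate 3 chose the genes and are among the 15.

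Summed levels of other lists were also high in these libraries. Genes of the ATF4 stress response summed to 4295 CPM in LH replicate 1, 6776 CPM in HL replicate 3 and 4565 CPM in HH replicate 4, against 2346 to 2983 CPM in the other 9 libraries of collection 6. Glycolysis genes summed to 3409, 4047 and 3154 CPM, against 1872 to 3417 CPM, where HL replicate 4 had 3417 CPM.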
